A study of Mus musculus with 8 samples.

Results

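Semaphorins, ephrins and Slits are guidance cues, first known from growing axons and also active between the cells of blood vessels, epithelia and the immune system. The genes described here are the 60 protein-coding genes, of 55416 gene IDs in the deposited count files, whose symbols name a class 3 to 7 semaphorin, a plexin, a neuropilin, an Eph receptor, an ephrin, a Slit or a Robo. The symbol decided which genes belong, though the family itself was picked with earlier results of these data known, and 54 of the 60 were among the 18560 genes with enough counts to be tested. RNA came from lung tissue of female C57BL/6J mice (C57BL/6 in the labels), 6 to 8 weeks old. The tissue was taken about 24 h after an injection of lipopolysaccharide (LPS), a bacterial endotoxin that causes shock, or of saline. The question was how the inhibitor YW3-56 alters the response. The labels call it an inhibitor of the enzyme PAD4, while the paper also reports inhibition of other PAD enzymes. In the control group (n = 3, mice 1, 2 and 4) the solvent DMSO went into the tail vein and saline into the peritoneum. The LPS group (n = 3, mice 1, 6 and 7) received 35 mg/kg LPS into the peritoneum. The dual-treatment group (n = 2, mice 2 and 5) received 10 mg/kg YW3-56 in DMSO 30 min before 35 mg/kg LPS. The methods do not say that the LPS group received DMSO, so solvent and inhibitor cannot be told apart between the treated groups. No library came from mice given YW3-56 alone, the dual-treatment group had fewer mice than the others, and each library came from the lobes of a single side of the lung. Total counts ran from 19061949 in control mouse 1 to 20908608 in dual-treated mouse 5.

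Semaphorins bind plexins, and the secreted class 3 semaphorins do so mostly through a neuropilin co-receptor. Ephrins are held on the cell surface and bind Eph receptor tyrosine kinases on the neighboring cell, with ephrin-B2 and EphB4 known as the arterial and venous partners of blood vessels. Slits are secreted ligands of the Robo receptors, and all these receptors act on the cytoskeleton and on cell adhesion, including the junctions of lung endothelium.

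The libraries carried the RNA of lung. The alveolar type 2 markers summed to 43318, 36720 and 46605 CPM (read counts scaled to a common library total with edgeR's TMM factors) in control mice 1, 2 and 4, with Sftpc the most abundant by CPM (here and below, the rank within a list is over all 8 mice together and can differ within a group), and none of the 8 was at 0 in any group. LPS mice 6 and 7 stood apart from the other libraries. Squamous epithelium markers summed to 749 and 2067 CPM in those mice, against 36.7 in LPS mouse 1 and 43.0 to 54.9 in the control mice. Skeletal muscle markers likewise summed to 500.1 and 1287 CPM there, against 17.5 in LPS mouse 1. The most abundant genes by CPM were Krt13 and Acta1, and Sprr1b, Sprr3, Krt16, Dsg3, Myh2 and Pvalb were at 0 in the control group. In dual-treated mouse 2 the B cell markers summed to 1363 CPM, nearly all Ighm (1293 CPM), against 93.8 in dual-treated mouse 5. Results are therefore given with all 8 libraries, and guidance genes whose call was lost without LPS mice 6 and 7 are named, while smaller shifts in the marker lists are not all listed.

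Guidance genes were downregulated more often than upregulated in the LPS group. A gene is called here when its fold change exceeded 2 and its adjusted p was under 0.05 in edgeR's quasi-likelihood test over all 18560 genes. With LPS against control, 21 of the 54 tested guidance genes were called lower (38.9%), where 21.3% of all tested genes were. Another 9 were called higher (16.7%), near the 17.9% of all tested genes. Their median log2 fold change was -0.76, against -0.01 over all tested genes. In the dual-treatment group against control, 6 guidance genes were called lower (11.1%, all genes 1.9%) and 3 higher (5.56%, all genes 5.25%), with a median of -0.38 against 0.00. The 6 became 3 without dual-treated mouse 2 (all genes 0.798%) and 9 without dual-treated mouse 5 (all genes 3.62%). Dual treatment against LPS called 14 higher (25.9%, all genes 19.8%) and 6 lower (11.1%, all genes 14%), with a median of 0.39 against 0.06, or 0.17 against 0.01 without dual-treated mouse 5. The 3 comparisons share mice, so they are not independent of each other. In bulk tissue, fewer cells of a type and less RNA per cell cannot be told apart, and this holds for every value that follows. Without LPS mice 6 and 7, 19 guidance genes were called lower (all genes 19.7%) and 10 higher (all genes 15.9%) in the remaining LPS mouse, whose spread was taken from the other groups. Scaling by library size alone lowered the median of all genes from -0.01 to -0.29 for LPS against control, and it called 27 guidance genes lower (all genes 27.6%) and 7 higher (all genes 13.3%). For dual treatment against LPS it called 21 guidance genes higher (all genes 27.6%) and 4 lower (all genes 9.36%), with a median of 0.72. Under that scaling the share of calls that were higher among all genes went from 45.6% to 32.5%, and for dual treatment against LPS it went from 58.5% to 74.7% while the median of all genes went from 0.06 to 0.38.

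**Figure D1:**
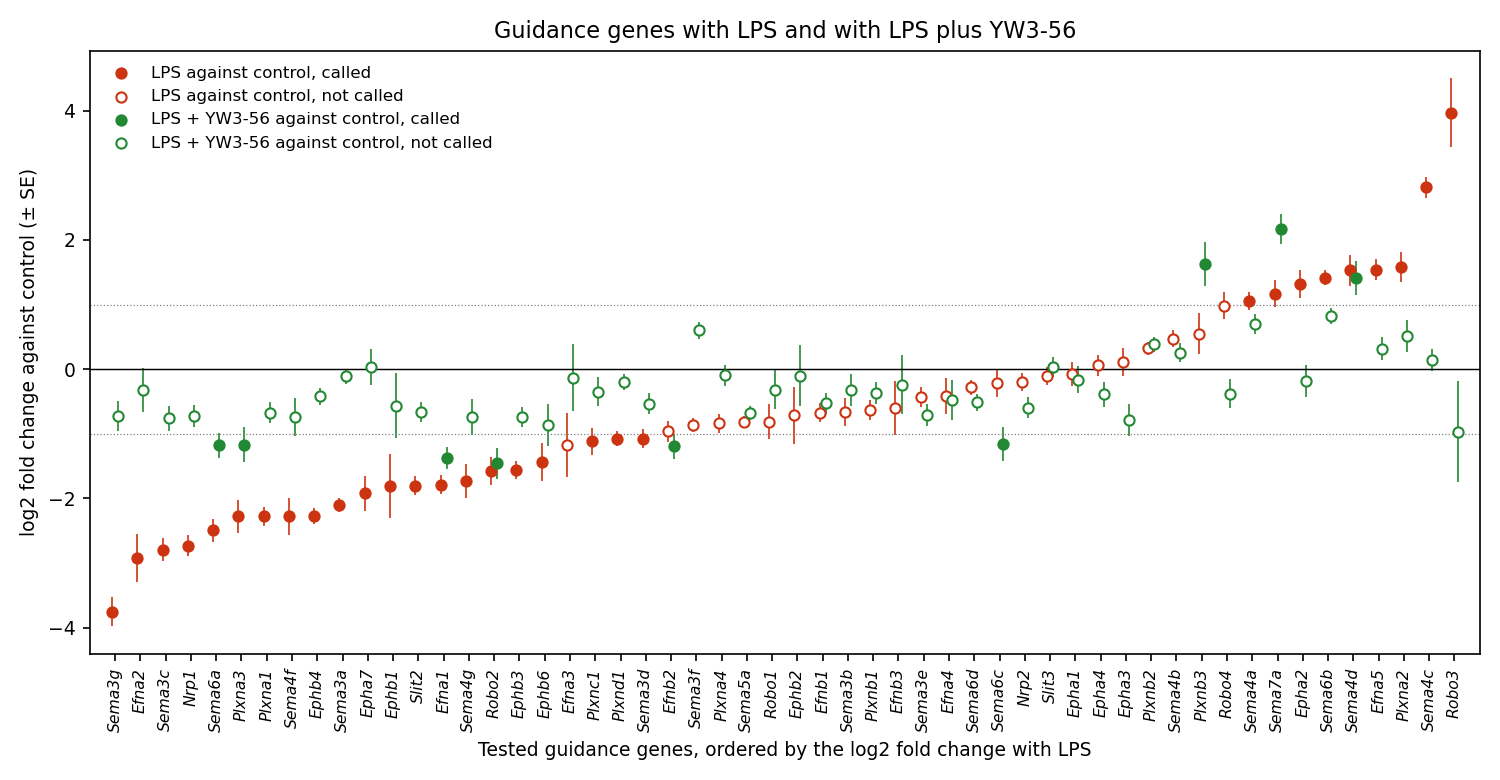
Log2 fold change against control (vertical axis, ± standard error) of the 54 tested guidance genes, ordered along the horizontal axis by their value with LPS; red is LPS and green is LPS plus YW3-56, filled points were called and dotted lines mark a fold change of 2. The red points run from -3.75 for Sema3g to 3.97 for Robo3, while the green points of the genes at both ends lie closer to 0.

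Among the secreted class 3 semaphorins, 4 of 7 fell with LPS (all genes 21.3%) and none rose (all genes 17.9%). Sema3g, made by arterial endothelium and a ligand of neuropilin-2, fell most of all guidance genes. It stood at 285, 273 and 329 CPM in control mice 1, 2 and 4, at 15.9, 27.1 and 22.9 CPM in LPS mice 1, 6 and 7, and at 142 and 215 CPM in dual-treated mice 2 and 5. The groups did not overlap, and both dual-treated mice lay between the other groups. Sema3g fell by 3.75 ± 0.23 (SE) on the log2 scale with LPS (edgeR adjusted p = 1.43e-06), was higher by 3.02 ± 0.23 in dual treatment than in LPS (adjusted p = 1.03e-05), and against control the dual-treatment value of -0.73 was not called (adjusted p = 0.0581). Sema3c, which acts on vessel and airway growth through both neuropilins, was measured at 323, 387 and 405 CPM in control mice, 57.7, 52.2 and 51.1 in LPS mice, and 168 and 272 in dual-treated mice. Again no LPS mouse reached a mouse of another group. Its log2 fold change was -2.79 with LPS and 2.03 between the treated groups. Sema3a, the classical axon repellent and ligand of neuropilin-1, had 46.6, 47.3 and 52.9 CPM in control mice, 11.0, 12.5 and 10.8 in LPS mice, and 43.3 and 47.5 in dual-treated mice. Here the dual-treated mice overlapped the control mice, with log2 values of -2.10 for LPS and -0.11 for dual treatment against control. Sema3d fell by 1.07 with LPS, but its call was lost without LPS mouse 6 (-0.99) and without LPS mice 6 and 7 (-0.92).

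Sema3f, a ligand of neuropilin-2, was the class 3 semaphorin with the highest level per length over all mice. Control mice had 248, 267 and 277 CPM, LPS mice 149, 125 and 161, and dual-treated mice 389 and 410. Both dual-treated mice exceeded every control mouse and every LPS mouse. Dual treatment was higher than LPS by 1.46 ± 0.13 on the log2 scale (edgeR adjusted p = 1.79e-05), while the values against control, -0.86 for LPS and 0.60 for dual treatment, did not pass the fold criterion. Sema3b (-0.66 with LPS) and Sema3e (-0.43), the ligand of plexin-D1, were not called in any comparison. The 7 genes together summed to 1061, 1134 and 1215 CPM in control mice, 361, 309 and 336 in LPS mice, and 831 and 1076 in dual-treated mice.

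The membrane-bound semaphorins of classes 4 to 7 moved in both directions with LPS. Of 12 tested genes, 5 were higher (all genes 17.9%) and 3 lower (all genes 21.3%). Sema4c, a ligand of plexin-B2, rose most: control mice had 48.9, 50.6 and 51.0 CPM, LPS mice 446, 302 and 314, and dual-treated mice 59.8 and 51.1. LPS mice lay far above all others, and the dual-treated mice sat just above the control mice. The change was 2.82 ± 0.16 with LPS (edgeR adjusted p = 1.12e-06) and -2.67 ± 0.19 for dual treatment against LPS (adjusted p = 7.64e-06). Without LPS mice 6 and 7 these became 3.16 and -3.02. Exons of a gene on the other strand cover 16.8% of the exon bases of Sema4c, and the strand setting of the counting is not given in the sources used here. Reads of such a partner cannot be told apart from those of Sema4c.

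Sema7a, a lipid-anchored semaphorin that binds plexin-C1 and integrin beta 1, was the guidance gene with the highest level per length in the LPS group and in the dual-treatment group. Its values were 136, 121 and 121 CPM in control mice, 311, 293 and 244 in LPS mice, and 740 and 390 in dual-treated mice. All treated mice were above all control mice, and both dual-treated mice were above every LPS mouse, although they differed widely from each other. Sema7a was upregulated by 1.17 ± 0.21 with LPS (edgeR adjusted p = 0.000856) and by 2.17 ± 0.23 with dual treatment (adjusted p = 0.000404). Between the treated groups the difference just missed the fold criterion, with an adjusted p of 0.00437 in the same edgeR test. Scaled by library size alone, the LPS value was 0.88 and was no longer called.

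Sema4d, the ligand of plexin-B1 and CD72, was measured at 15.4, 14.0 and 16.5 CPM in control mice, 47.4, 41.0 and 44.4 in LPS mice, and 25.4 and 55.8 in dual-treated mice. The dual-treated mice straddled the LPS mice, and all were above control. Sema4d rose by 1.53 with LPS and by 1.41 with dual treatment, but without dual-treated mouse 5 the dual-treatment value was 0.70 and was not called. Another gene covers 13.7% of its exon bases on the other strand. Sema6b, a transmembrane semaphorin, had 17.2, 17.2 and 18.7 CPM in control mice, 54.5, 45.6 and 41.8 in LPS mice, and 32.8 and 29.8 in dual-treated mice. Its dual-treated mice lay between the groups, at 0.82 against control and -0.59 against LPS, neither of them called. Sema4a, which binds B and D plexins, rose from 44.7, 34.2 and 45.8 CPM to 85.6, 96.8 and 76.4, a log2 change of 1.05 that was not called without control mouse 2 (0.93), without LPS mouse 6 (0.97) or with library size alone (0.77).

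Sema6a, a transmembrane ligand of plexin-A2 and plexin-A4, went the other way. Control mice had 93.3, 85.2 and 89.0 CPM, LPS mice 17.6, 16.0 and 13.9, and dual-treated mice 30.01 and 48.7. No mouse of one group overlapped another group. Sema6a fell by 2.49 with LPS and by 1.18 with dual treatment, and it was higher in dual treatment than in LPS by 1.31. Without dual-treated mouse 2 the value against control was -0.90, and without dual-treated mouse 5 the value against LPS was 0.90, neither called. Sema4f fell by 2.28 with LPS, from 21.7, 23.2 and 36.0 CPM to 6.76, 5.94 and 4.02, and was 12.2 and 20.1 in the dual-treated mice, higher than LPS by 1.53. Sema4g fell by 1.73 and was 2.49 and 3.20 CPM in the dual-treated mice, against 1.19 to 1.73 CPM in LPS mice and 4.22 to 5.65 in control mice; the gene on its other strand covers 12.7% of its exon bases. Sema6c was called lower in dual treatment against control and in no other comparison (-0.95 against LPS missed the fold criterion), with 6.11, 9.52 and 9.78 CPM in control mice, 5.99, 8.14 and 7.81 in LPS mice, and 3.85 and 3.73 in dual-treated mice. That call (-1.16, edgeR adjusted p = 0.0163) was lost without control mouse 2 (-1.07), control mouse 4 (-1.07), dual-treated mouse 2 (-1.21) or dual-treated mouse 5 (-1.17), each time on the adjusted p, which went up to 0.0849. Sema4b, Sema5a and Sema6d were not called in any comparison, with LPS values of 0.47, -0.82 and -0.28.

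**Figure D2:**
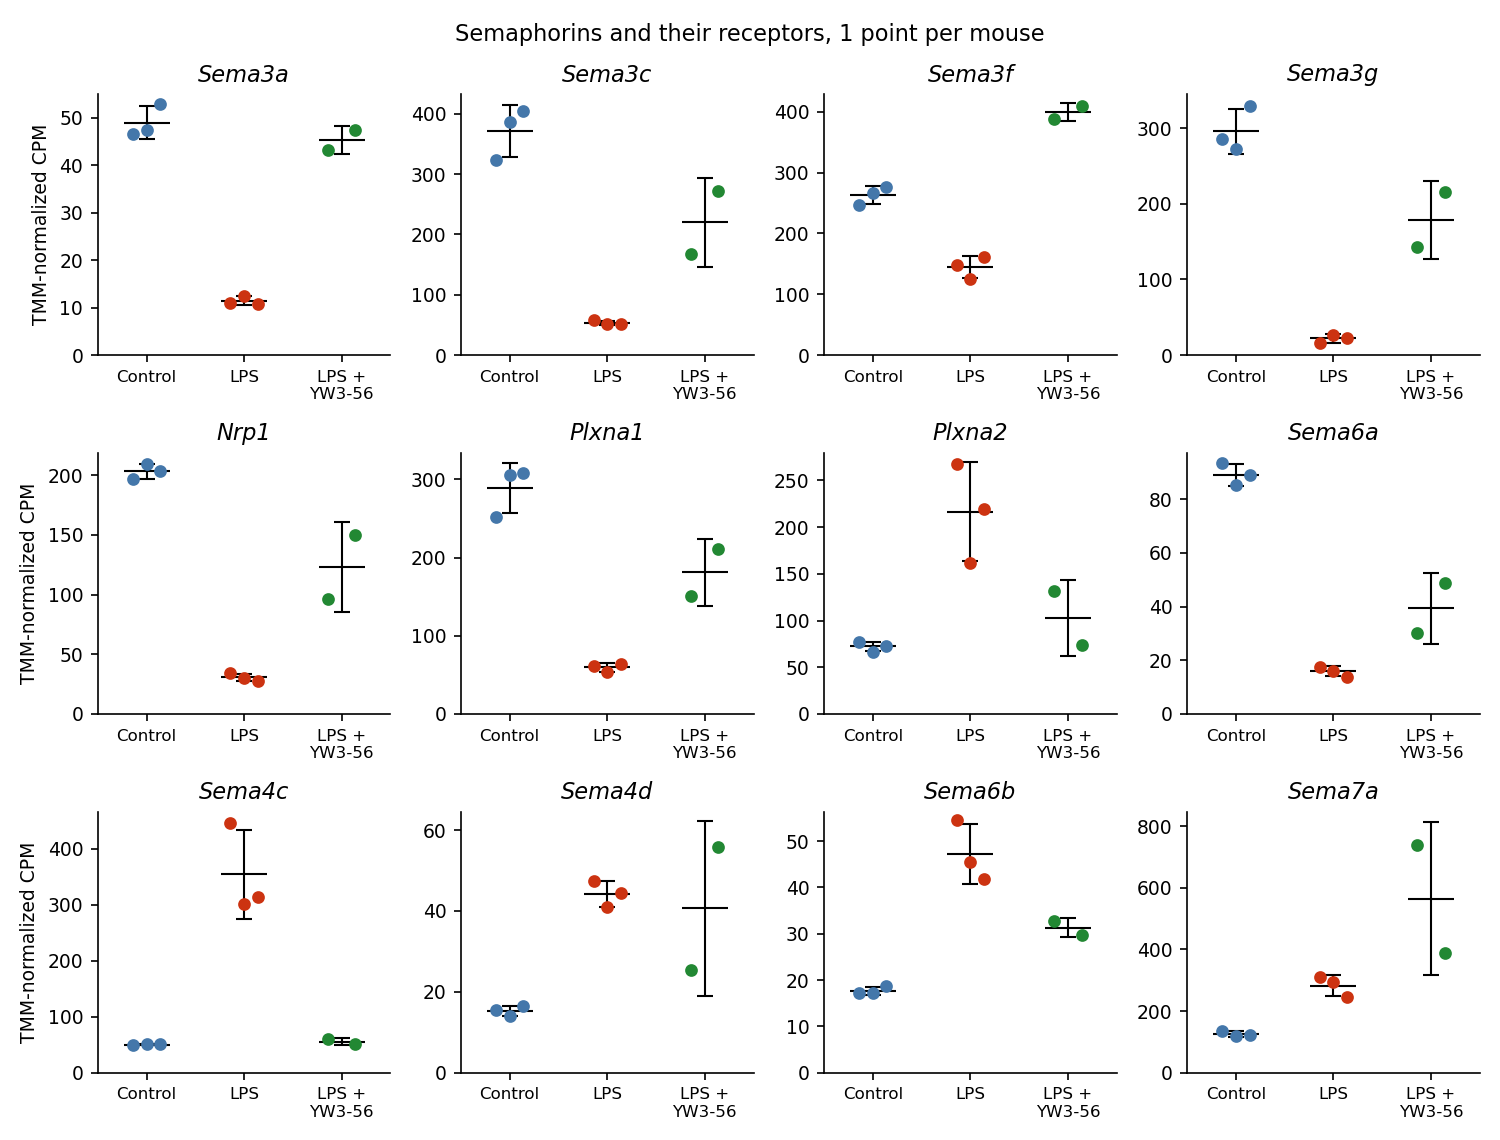
TMM-normalized CPM (vertical axis, linear from 0, a scale of its own in each panel) of 12 semaphorins and receptors in control, LPS and LPS plus YW3-56 mice; each point is 1 mouse, and black bars are the mean ± SD (n = 3, 3 and 2). LPS mice are lowest for Sema3a, Sema3c, Sema3g, Nrp1, Plxna1 and Sema6a and highest for Sema4c, where they run from 302 to 446 CPM.

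On the receptor side, neuropilin-1 fell with its ligands. Nrp1, which is also a co-receptor of VEGF on endothelium, had 197, 210 and 204 CPM in control mice, 34.1, 29.8 and 27.9 in LPS mice, and 96.7 and 149.8 in dual-treated mice. The groups were fully separate. Nrp1 fell by 2.73 ± 0.16 with LPS (edgeR adjusted p = 1.40e-06) and was higher by 2.01 ± 0.17 with dual treatment than with LPS (adjusted p = 1.69e-05). Nrp2, the co-receptor of Sema3f and Sema3g, was not called in any comparison, and its mice had 86.6, 86.6 and 76.4 CPM in the control group, 89.9, 62.0 and 65.0 in the LPS group, and 55.1 in each dual-treated mouse.

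Of the 9 plexins, 4 fell (all genes 21.3%) and 1 rose (all genes 17.9%) with LPS. Plxna1, the signaling partner of neuropilin-1, was measured at 252, 306 and 308 CPM in control mice, 61.4, 53.4 and 63.5 in LPS mice, and 151 and 211 in dual-treated mice. Its LPS mice were below all others, at -2.28 against control, and dual treatment was higher than LPS by 1.61. Plxna2, the receptor of Sema6a, had 77.0, 66.8 and 72.9 CPM in control mice, 268, 162 and 219 in LPS mice, and 131 and 74.3 in dual-treated mice. Thus the plexin-A2 receptor gene was highest in the mice in which Sema6a was lowest, and dual-treated mouse 5 lay within the control range. Plxna2 rose by 1.58 with LPS, and its call of -1.07 between the treated groups was lost without LPS mouse 1 (-0.90), without dual-treated mouse 5 (-0.74) and with library size alone (-0.73). Genes on the other strand cover 16.8% of its exon bases. Plxna3, another neuropilin partner, fell from 8.36, 11.1 and 10.4 CPM to 1.66, 1.79 and 2.68 with LPS (-2.28), and was 3.81 and 5.04 in dual-treated mice. Its calls in the dual-treatment group were less firm. Against control the value of -1.17 was not called without control mouse 2 (-1.08), control mouse 4 (-1.16) or dual-treated mouse 2 (-1.01), and against LPS the value of 1.11 was not called without LPS mouse 1 (0.98) or dual-treated mouse 5 (0.87).

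Plxnd1, the endothelial receptor of Sema3e, had 161, 168 and 165 CPM in control mice, 91.5, 68.6 and 74.6 in LPS mice, and 144 and 142 in dual-treated mice. It fell by 1.08 with LPS, a call lost without LPS mouse 6 (-0.98) and without LPS mice 6 and 7 (-0.84). Plxnc1, the receptor of Sema7a, fell by 1.12 while Sema7a rose: its mice had 17.6, 23.1 and 19.7 CPM in control, 9.48, 9.64 and 8.70 with LPS, and 11.5 and 20.1 with dual treatment. Plxnb2, the receptor of Sema4c and the plexin with the highest level per length, was not called, with 285, 274 and 311 CPM in control mice, 359, 338 and 390 in LPS mice and 355 and 402 in dual-treated mice. Plxnb3, a receptor of Sema5a, was upregulated by 1.63 in dual treatment against control at a low level, 3.22 and 3.42 CPM against 1.22, 0.750 and 1.24 in control and 1.48, 1.27 and 1.95 with LPS. That call was lost without dual-treated mouse 2 (1.64, edgeR adjusted p = 0.0573). Its value of 1.08 against LPS was not called without LPS mouse 6 (0.94), dual-treated mouse 2 (1.10) or dual-treated mouse 5 (1.01), nor without LPS mice 6 and 7 (1.15). Plxna4 (-0.84 with LPS) and Plxnb1 (-0.63) were not called.

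Of 8 ephrin genes, 2 were called lower (all genes 21.3%) and 1 higher (all genes 17.9%) with LPS. With dual treatment against control 2 were called lower (all genes 1.9%). Efna1, a lipid-anchored ligand of EphA2, had 181, 146 and 174 CPM in control mice, 42.6, 54.2 and 48.3 in LPS mice, and 54.4 and 74.8 in dual-treated mice. All treated mice were below all control mice, by 1.79 ± 0.15 on the log2 scale with LPS (edgeR adjusted p = 7.23e-06) and -1.37 ± 0.17 with dual treatment (adjusted p = 0.000870). Efnb2 had 218, 211 and 231 CPM in control mice, 141, 91.3 and 106 in LPS mice, and 83.2 and 109 in dual-treated mice. The treated groups overlapped each other and lay below control, at -0.96 with LPS, which missed the fold criterion, and -1.19 ± 0.19 with dual treatment (edgeR quasi-likelihood adjusted p = 0.00323). Genes on its other strand cover 10.3% of its exon bases. Efnb1, the ephrin B gene with the highest level per length, was not called (-0.67 and -0.53 against control). Efna5 was the only ephrin gene called higher with LPS, by 1.54, with 4.79, 4.88 and 4.50 CPM in control mice, 15.3, 13.7 and 12.3 in LPS mice, and 5.89 and 5.88 in dual-treated mice. Its dual-treated mice sat just above control, and the value of -1.22 against LPS became -0.89, not called, with library size alone. Efna2 fell by 2.92 from 2.79, 2.58 and 2.57 CPM to 0.178, 0.404 and 0.446, which are 3, 7 and 8 counts, and had 1.90 and 2.32 CPM in dual-treated mice. Without LPS mice 6 and 7, whose removal left those 3 counts for the group, the LPS value was -3.85. Efna3 and Efna4, which lie beside Efna1 on chromosome 3 (chr3:89179037-89245373, GRCm39), were not called, nor was Efnb3. Another gene covers 30.7% of the exon bases of Efna3 on the other strand.

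EphB receptor genes fell with LPS in 4 of 5 cases (all genes 21.3%) and none rose (all genes 17.9%). Ephb4, the venous receptor of ephrin-B2, had 167, 186 and 203 CPM in control mice, 37.0, 39.4 and 38.5 in LPS mice, and 121 and 156 in dual-treated mice. No LPS mouse came near another group, and the spread among the LPS mice was small. Ephb4 fell by 2.27 ± 0.12 with LPS (edgeR adjusted p = 8.98e-07) and was higher by 1.86 ± 0.13 with dual treatment than with LPS (adjusted p = 7.79e-06). Set beside Efnb2, the receptor gene thus differed between the treated groups while the ligand gene did not pass the test there (-0.23, edgeR quasi-likelihood adjusted p = 0.302). Ephb3, a receptor of epithelium and vessels, had 83.0, 81.7 and 81.6 CPM in control mice, 33.7, 25.2 and 24.7 in LPS mice, and 44.2 and 54.3 in dual-treated mice. It fell by 1.56 with LPS, and the dual-treated mice lay between the groups without a call. Ephb6, a receptor without kinase activity, fell by 1.43 (13.4, 9.56 and 13.5 CPM to 3.79, 3.58 and 6.08), with 14.7% of its exon bases covered on the other strand. Ephb1 fell by 1.81 at 0.288 to 0.837 CPM in LPS mice, a call lost without LPS mice 6 and 7 (-1.59, edgeR quasi-likelihood adjusted p = 0.0801).

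The EphA class had 1 gene higher (all genes 17.9%) and 1 lower (all genes 21.3%) with LPS, of 5 tested. Epha2, the receptor of ephrin-A1 and the EphA gene with the highest level per length, had 135, 113 and 135 CPM in control mice, 437, 217 and 296 in LPS mice, and 118 and 106 in dual-treated mice. LPS mice were above all others and spread widely, while dual-treated mice overlapped the control mice. Epha2 rose by 1.31 ± 0.22 with LPS (edgeR adjusted p = 0.000541), while its ligand gene Efna1 fell, and was 2.83 times lower in dual treatment than in LPS (adjusted p = 0.000813). Without LPS mice 6 and 7 the LPS value was 1.78. Epha7 fell by 1.92 with LPS, with 7.04, 5.95 and 7.53 CPM in control mice, 1.84, 2.13 and 1.45 in LPS mice, and 5.12 and 8.86 in dual-treated mice. Dual treatment spanned the control range and was higher than LPS by 1.95. Epha1, Epha3 and Epha4 were not called, with LPS values of -0.08, 0.11 and 0.06; another gene covers 36.9% of the exon bases of Epha1 on the other strand. Epha5, Epha6, Epha8 and Epha10 were too low to test, Epha6 with 0 counts in all 8 libraries and the others with at most 4 counts in any library. Sema5b and Slit1 also fell below the filter, with at most 3 and 14 counts.

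Slit2, the secreted ligand of Robo1 and Robo2, fell by 1.80 with LPS. Its mice had 32.5, 29.1 and 30.8 CPM in control, 9.90, 7.15 and 9.42 with LPS, and 17.95 and 20.97 with dual treatment. The groups did not overlap, and dual treatment was higher than LPS by 1.14, or 0.97 and not called without LPS mice 6 and 7. Slit3, the Slit with the highest level per length, was not called in any comparison, at 61.4, 66.9 and 69.3 CPM in control mice and 68.8, 49.5 and 64.6 in LPS mice. Robo2 had 14.8, 14.5 and 14.2 CPM in control mice, 5.75, 3.69 and 5.13 in LPS mice, and 4.26 and 6.32 in dual-treated mice. Treated mice of both groups overlapped each other and were below control, at -1.58 ± 0.21 with LPS (edgeR adjusted p = 0.000141) and -1.45 ± 0.24 with dual treatment (adjusted p = 0.00407). Robo1 was not called (-0.81 with LPS).

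Robo4, the Robo of endothelium, went against Robo2. Control mice had 106, 94.0 and 105 CPM, LPS mice 260, 150 and 191, and dual-treated mice 93.8 and 62.5. LPS mice were above all others, at 0.98 against control, just under the fold criterion, and dual treatment was lower than LPS (-1.36 ± 0.24, edgeR adjusted p = 0.000984). Robo3, a receptor best known from neurons that cross the midline, had 0.293, 0.375 and 0.138 CPM in control mice, 6.46, 3.23 and 3.18 in LPS mice, and 0.227 and 0.0439 in dual-treated mice. Only the LPS mice rose above a trace: the counts were 6, 8 and 3 in control mice, 109, 56 and 57 in LPS mice, and 5 and 1 in dual-treated mice. The log2 change was 3.97 ± 0.53 with LPS (edgeR quasi-likelihood adjusted p = 0.000137) and -4.93 ± 0.69 for dual treatment against LPS (adjusted p = 0.000264). The size of the latter rests on few counts and ran from -4.22 without dual-treated mouse 5 to -6.43 without dual-treated mouse 2. Robo4 and Robo3 are neighbors on chromosome 9 (chr9:37313193-37344737, GRCm39), on opposite strands with their ends 553 bases apart. Whether reads past the end of Robo4 were counted for Robo3 was not tested.

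**Figure D3:**
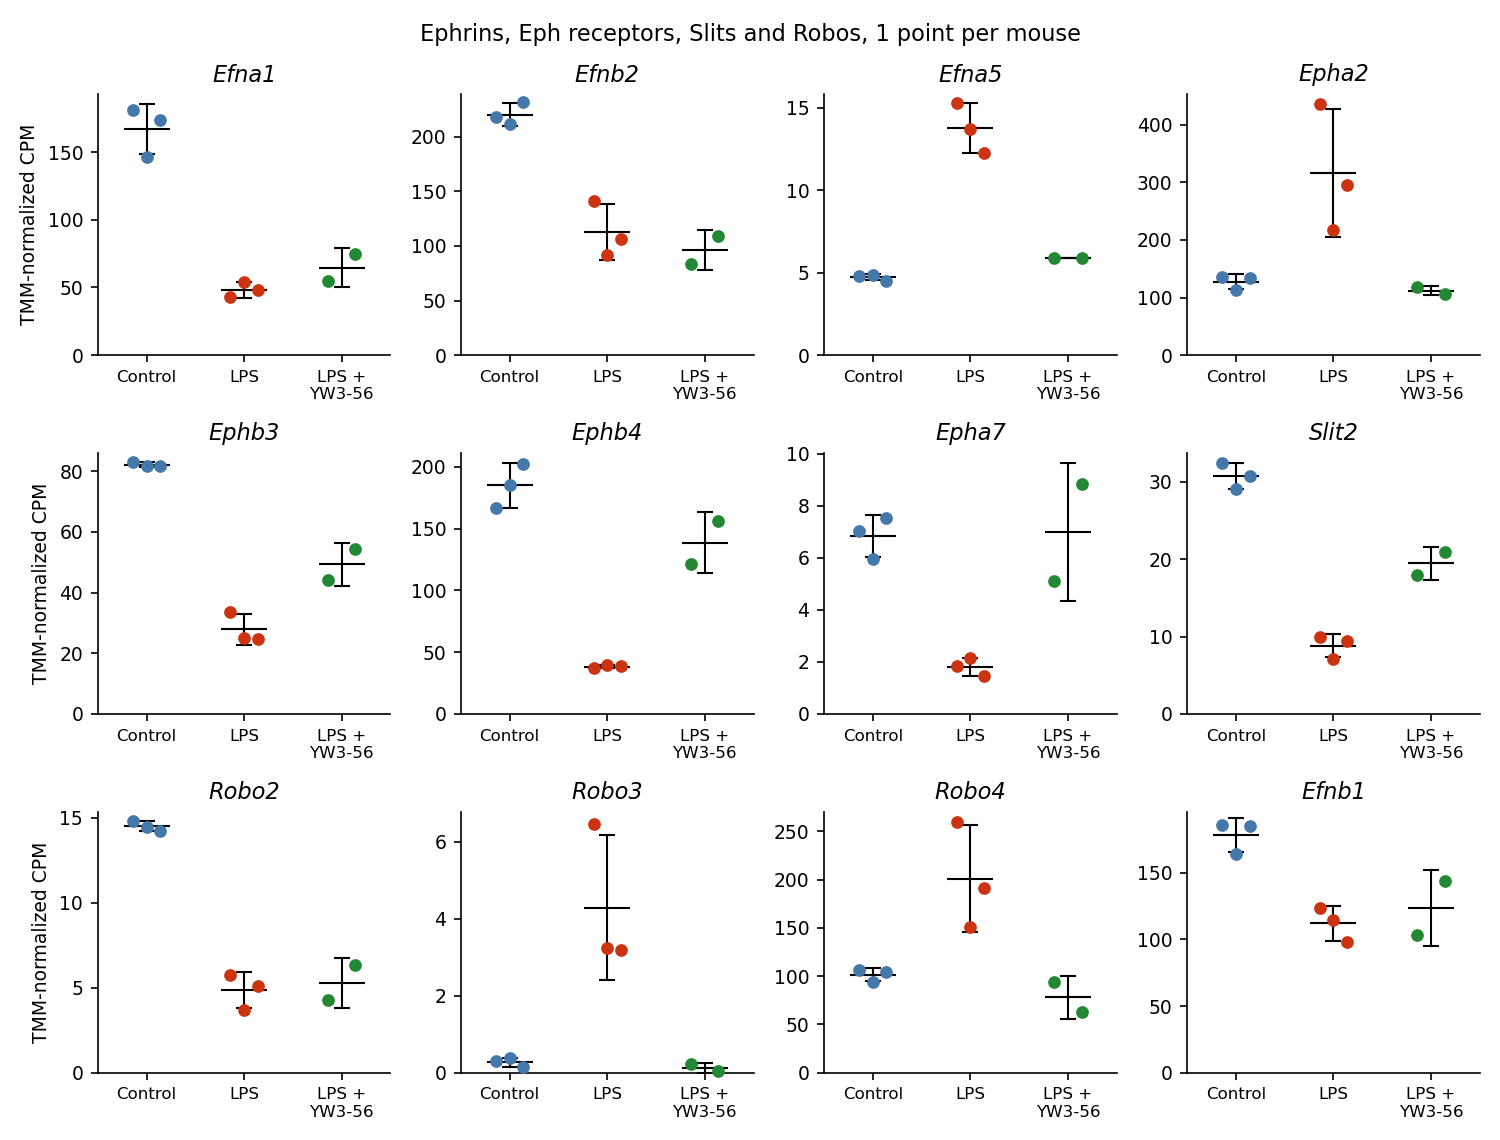
TMM-normalized CPM (vertical axis, linear from 0, a scale of its own in each panel) of 12 ephrins, Eph receptors, Slits and Robos in control, LPS and LPS plus YW3-56 mice; each point is 1 mouse, and black bars are the mean ± SD (n = 3, 3 and 2). Efna1, Efnb2 and Robo2 are low in both treated groups, while Epha2, Efna5, Robo3 and Robo4 are highest in LPS mice, Epha2 at 217 to 437 CPM.

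Taken by pattern, 10 genes fell with LPS, were higher in dual treatment than in LPS and were not called against control in dual treatment: Efna2, Epha7, Ephb4, Nrp1, Plxna1, Sema3a, Sema3c, Sema3g, Sema4f and Slit2. The mirror pattern held 5 genes: Efna5, Epha2, Plxna2, Robo3 and Sema4c. Of the genes lower with LPS, the first pattern held 47.6% of guidance genes and 71.4% of all tested genes. Of the genes higher with LPS, the mirror pattern held 55.6% and 57.8%. Of the 21 genes lower with LPS, all 21 had a smaller change with dual treatment, with medians of -1.92 and -0.72, and 12 were called higher in dual treatment than in LPS. That is 57.1%, below the 74.2% of all 3961 genes lower with LPS, of which 98.3% had a smaller change with dual treatment. Of the 9 genes higher with LPS, 8 had a smaller change with dual treatment, with medians of 1.53 and 0.51, Sema7a being the exception. Of these 9 genes 55.6% were called lower in dual treatment than in LPS, against 63.7% of all 3318 genes higher with LPS, of which 91.5% had a smaller change. The difference in these shares was not tested. Since genes were picked by their LPS value and the comparisons share mice, part of the return follows from the choice. Another 4 genes were called lower against control in both treated groups (Efna1, Plxna3, Robo2 and Sema6a), and Sema4d and Sema7a were called higher in both. The 19 tested genes called in no comparison had log2 values between -1.17 and 1.04. For the genes called in both treated groups or in no comparison, the shares over all tested genes are not given. These counts are therefore not read as particular to guidance genes.

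Levels per length, in CPM per kb of exon, changed their order between groups. In control mice the order was led by Sema3g (65.1), Efna1 (48.7), Sema3f (46.7), Sema3c (45.5) and Efnb1 (44.8), of which the last 4 lie close together. In LPS mice it was led by Sema7a (85.2), Epha2 (67.6), Sema4c (54.5), Plxnb2 (44.3) and Robo4 (37.8), with Sema3g at 4.83 CPM per kb. In dual-treated mice Sema7a (170.1) was followed by Sema3f (70.8), Plxnb2 (46.3), Sema3g (39.3) and Efnb1 (31.1). The 60 genes together took 4171, 4219 and 4492 CPM in control mice, 3774, 2903 and 3189 in LPS mice, and 3824 and 3991 in dual-treated mice.

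Genes around these ligands and receptors were counted in 3 further lists. Of all tested genes, 21.3% were called lower and 17.9% higher with LPS. The shares were 1.9% and 5.25% for dual treatment against control, and 14% and 19.8% for dual treatment against LPS. Among netrin and RGM guidance genes, 5 of 15 tested fell and 1 rose with LPS, 3 were lower and none higher with dual treatment against control, and 2 were higher and 1 lower with dual treatment against LPS. Ntn1 was not called (-0.58 with LPS), and Ntn4, which stood above it in control mice, fell by 2.35 with LPS. The LPS calls of Draxin (-1.51) and Flrt3 (-1.20) were lost without LPS mice 6 and 7 (-1.24 and -0.99). Unc5b (0.98) was then called higher (1.16). Ntn5 rose by 1.02 with LPS, and Ntn3 fell by 2.91 and was higher by 2.79 with dual treatment than with LPS. Flrt1 was lowest, with 0, 2 and 1 counts in LPS mice, so no fold is given. Of 31 tested effectors that act inside the cell, 6 fell (all genes 21.3%) and 1 rose (all genes 17.9%) with LPS. With dual treatment 1 was lower against control, and 4 were higher and 1 lower against LPS. Without LPS mice 6 and 7, Dpysl3 (1.09) and Srgap1 (1.20) were also called higher with LPS and Vav3 (-1.04) lower. Dpysl5, a collapsin response mediator, had 15.8, 16.4 and 14.0 CPM in control mice, 0.415, 0.288 and 0.335 in LPS mice, and 4.08 and 9.83 in dual-treated mice. It was lower than control in both treated groups and fell by 5.45 with LPS, but its call for dual treatment against control (-1.15) was lost without LPS mice 6 and 7 (edgeR quasi-likelihood adjusted p = 0.0516). Rnd1, a small GTPase that binds plexins, rose by 2.69 with LPS, from 27.8, 24.1 and 32.5 CPM to 250.2, 144 and 152, and was 65.3 and 34.9 in dual-treated mice. Of 6 tested other receptors of semaphorins, 2 fell with LPS, none was called with dual treatment against control, and 1 was higher against LPS. These were Kdr, the VEGF receptor (-2.60, then 1.70 against LPS), and Itga1 (-1.52). Itgb1, a receptor of Sema7a and the most abundant by CPM, was not called (0.11 with LPS). Without LPS mice 6 and 7, Cd72 was called higher with LPS (1.47).

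Markers of blood vessels did not move as a block, and several fell with LPS, as several alveolar type 1 markers did (below). Of the 8 endothelium markers, 4 fell with LPS and none rose, none was called with dual treatment against control, and 4 were higher in dual treatment than in LPS. They summed to 3759, 3872 and 4155 CPM in control mice, 2457, 1963 and 1939 in LPS mice, and 3612 and 3738 in dual-treated mice, and none was at 0. Cdh5, the endothelial cadherin, which led the list in LPS mice but not in control (Egfl7) or dual-treated mice (Pecam1), was measured at 589, 659 and 736 CPM in control mice, 937, 656 and 641 in LPS mice, and 510 and 590 in dual-treated mice, and was not called (0.17 with LPS). Tek, the angiopoietin receptor, fell most, by 3.28, Pecam1 least among those called, by 1.52, and Tie1 was higher by 2.82 in dual treatment than in LPS. General capillary markers fell in 3 of 4 cases with LPS, were lower in 2 with dual treatment against control and higher in 1 against LPS, led by Plvap. Among those called, the largest and smallest falls with LPS were those of Aplnr (-3.25) and Kit (-1.69). They summed to 759, 804 and 877 CPM in control mice, 339, 262 and 251 in LPS mice, and 732 and 685 in dual-treated mice. For aerocyte capillaries the counts were 3 of 4 lower with LPS, 1 lower with dual treatment against control and 2 higher against LPS, with sums of 569, 667 and 627, then 285, 296 and 235, then 320 and 512 CPM (Tbx2 most abundant). Apln fell most there with LPS (-4.20) and Tbx2 least among those called (-1.84). Arterial markers, led by Dll4 in control and by Gja4 in LPS mice, fell in 2 of 4 cases with LPS, 1 was lower with dual treatment against control and 2 were higher against LPS, with sums of 202, 204 and 238 CPM in control mice, 89.6, 88.2 and 72.1 in LPS mice, and 74.0 and 130.1 in dual-treated mice. Among them Gja5, a gap junction gene, fell by 6.10 with LPS and Dll4 by 3.29. Venous markers fell in 3 of 4 cases with LPS while Ackr3, which led the list only in LPS mice, rose by 4.23, and Slc6a2 was lowest (-4.23); with dual treatment 1 was higher and 1 lower against control, and 2 were higher and 1 lower against LPS. Of 5 lymphatic markers, 1 was lower with LPS, 1 with dual treatment against control and 1 with dual treatment against LPS. Ccl21a was the marker lower with LPS (-1.73), and Flt4 was the most abundant by CPM. The part of these markers in the guidance gene results was not tested.

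Epithelial and stromal markers were counted the same way. Alveolar type 1 markers fell in 4 of 7 cases with LPS, 1 was lower with dual treatment against control and 4 were higher against LPS, with Ager most abundant by CPM. Rtkn2 fell most with LPS (-5.83) and Clic5 least among those called (-1.54). They summed to 5601, 5208 and 5365 CPM in control mice, 4165, 3410 and 2423 in LPS mice, and 2921 and 3817 in dual-treated mice. Of 8 alveolar type 2 markers, 3 fell with LPS, none was called with dual treatment against control and 2 were higher against LPS. Their sums were 31292, 22474 and 17695 CPM in LPS mice and 24707 and 38041 in dual-treated mice. Etv5 was lowest with LPS (-3.22) and Abca3 was the least changed of those called (-1.29). Club cell markers, most abundant by CPM in Scgb1a1, had 1 of 4 higher with LPS (Bpifa1, 1.13), 2 lower with dual treatment against control and 3 lower against LPS. Ciliated markers had no call against control in either treated group and 1 of 5 lower against LPS (Foxj1, -1.02), with Tppp3 most abundant by CPM. Among 8 fibroblast markers, led by Npnt in CPM, Col1a1 (-1.20) and Tcf21 (-1.09) were the 2 lower with LPS, none was called with dual treatment against control and 2 were higher against LPS. Of 7 smooth muscle and pericyte markers, led by Pdgfrb in CPM, Notch3 (-1.74) and Cspg4 (-1.52) were the 2 lower with LPS, 1 was lower with dual treatment against control, and 2 were higher and 2 lower against LPS. Mesothelium, led by Msln in CPM, had 2 of 4 lower with LPS (Lrrn4, -2.23, and Upk3b, -1.07), none with dual treatment against control and 1 higher against LPS.

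Blood cell markers differed between the treated groups. Neutrophil markers rose in 6 of 7 cases with LPS and in 6 with dual treatment against control, and 4 were higher and 1 lower in dual treatment than in LPS. Their sums were 214, 118 and 125 CPM in control mice, 2123, 2945 and 1841 in LPS mice, and 1714 and 2385 in dual-treated mice, S100a9 being the most abundant by CPM. Ly6g rose most with LPS (5.16) and Cxcr2 least among those called (1.52). Monocyte and macrophage markers, led by Csf1r, had 1 of 8 higher and 2 lower with LPS, but 5 higher with dual treatment against control and 5 higher against LPS. With LPS, Ly6c2 was highest (3.37) and Ccr2 lowest (-3.19). They summed to 306, 237 and 305 CPM in control mice, 336, 335 and 215 in LPS mice, and 635 and 740 in dual-treated mice. Of 6 T cell markers, led by Cd3d in CPM, 2 were lower with LPS (Cd4, -1.52, and Cd3g, -1.48), none was called with dual treatment against control and 2 were lower against LPS. B cell markers had 2 of 5 lower with LPS (Ms4a1, -2.62, and Cd79a, -1.68), 1 higher with dual treatment against control and 3 higher against LPS. All 5 erythroid markers were lower with dual treatment in both comparisons and none was called with LPS; Hbb-bs was the most abundant by CPM, and against control Hbb-bt was lowest (-3.21) and Alas2 highest (-2.50). Squamous markers had 7 of 11 tested higher and 1 lower with LPS (Ivl, -4.01; Sprr3 was highest and is given without a fold, being at 0 in control), none called with dual treatment against control, and 1 higher and 6 lower against LPS. All 9 tested skeletal muscle markers were higher with LPS, none was called with dual treatment against control and 8 were lower against LPS. The higher squamous and muscle calls with LPS rest on LPS mice 6 and 7. Without them no tested marker of these lists was called higher. Krt5 went from 3.12 to -3.64 and Krt14 from 0.88 to -4.89 with LPS, both then called lower. For dual treatment against LPS, Krt13 went from -9.09 to 1.24 and Krt5 from -7.55 to -0.78, neither then called. Krt14 (5.84) and Krt6a (7.65) were then called higher there. Without LPS mice 6 and 7 the muscle markers Acta1 (-1.95), Actn3 (0.60) and Tnni2 (-0.33) were not called there either, and Mylpf (1.46) was called higher. Without those mice 1 neutrophil marker and 1 B cell marker, in place of 4 and 3, were higher in dual treatment than in LPS. The calls with LPS of Cd4 (-0.60), Cd3g (-0.78), Cd79a (-1.57), Actc1 (-1.79), Bpifa1 (0.45), Upk3b (-0.79) and Ntn5 (1.10) were lost as well, as was that of Foxj1 for dual treatment against LPS (-0.75), while the T cell gene Trac was then called higher with LPS (1.21). Ckm rose least with LPS (3.24) and Myh1 most, without a fold since it was at the floor in control. Of 5 cardiac markers, led by Myh6 in CPM, 1 was lower with LPS (Actc1, -1.87), 4 were lower with dual treatment against control and 3 against LPS. Cartilage had 1 of 2 tested higher with LPS (Col2a1, the most abundant by CPM and close to 0 in control), none with dual treatment against control and 1 lower against LPS. Schwann cell and neuron markers had 1 of 3 tested higher with LPS (Tubb3, 4.08, the most abundant by CPM), 1 higher with dual treatment against control and 1 higher against LPS. Their part in the guidance gene results was not tested.

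Promoters were read for all 60 genes as the 250 bases before and 50 bases after the start of the canonical transcript in GRCm39 (GENCODE M39). They were richer in G and C than promoters at large, with a median of 62.7% against 54.3% over 21627 protein-coding genes. The GC box GGGCGG stood on either strand in 40 of 60 (66.7%), against 42.6% of all promoters, and in all 9 genes higher and 14 of the 21 genes lower with LPS. The TATA box TATAAA was in 3 (5%, all 13.2%), the hypoxia response core ACGTG in 10 (16.7%, all 20.7%) and the interferon response core GAAANNGAA in 3 (5%, all 8.78%). The κB motif was found in 11 (18.3%, all 8.95%), of which none was among the 9 genes higher with LPS and 4 were among the 21 genes lower with LPS. The AP-1 motif TGANTCA was found in 2 (3.33%, all 7.16%), and these were Sema3c, which fell with LPS, and Sema4c, which rose. The promoters of these 2 genes are shown because they share the motif and moved in opposite directions, and that of Plxnb3 because it holds a κB match and was called higher only with dual treatment. Capitals mark the AP-1 and κB letters; in Sema3c the κB match comes first. They lie at chr5:17778969-17779268 on the plus strand, chr1:36597254-36597553 on the minus strand and chrX:72800370-72800669 on the plus strand, in that order of Sema3c, Sema4c and Plxnb3, and are written 5′ to 3′ along the gene. A match describes the letters only.
Sema3c: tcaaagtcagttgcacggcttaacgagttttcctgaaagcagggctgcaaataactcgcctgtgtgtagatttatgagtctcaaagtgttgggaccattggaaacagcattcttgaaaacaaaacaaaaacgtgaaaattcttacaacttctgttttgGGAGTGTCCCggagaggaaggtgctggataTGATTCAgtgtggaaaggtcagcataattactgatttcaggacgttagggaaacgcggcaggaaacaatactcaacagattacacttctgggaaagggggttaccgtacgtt
Sema4c: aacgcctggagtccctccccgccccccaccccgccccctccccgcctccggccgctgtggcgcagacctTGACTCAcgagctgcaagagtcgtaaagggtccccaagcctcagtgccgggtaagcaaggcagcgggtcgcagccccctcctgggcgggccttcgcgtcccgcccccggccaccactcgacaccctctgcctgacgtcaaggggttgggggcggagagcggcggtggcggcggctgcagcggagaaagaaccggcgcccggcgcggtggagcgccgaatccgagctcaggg
Plxnb3: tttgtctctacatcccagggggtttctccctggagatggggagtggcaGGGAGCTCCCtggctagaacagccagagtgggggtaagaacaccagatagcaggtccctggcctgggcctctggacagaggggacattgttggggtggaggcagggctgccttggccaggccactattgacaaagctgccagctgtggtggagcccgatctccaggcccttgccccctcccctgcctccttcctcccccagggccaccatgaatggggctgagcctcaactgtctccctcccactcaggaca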

How the data were processed

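The authors deposited raw read counts per gene, 1 file per mouse, for 8 lung libraries. Per the labels and the submitters' processing notes, reads were checked with FastQC 0.11.9, trimmed with Trim Galore, aligned to GRCm39 with HISAT2 2.2.1 and counted with featureCounts 2.0.1. The strand setting and the annotation release are not given in the sources used here, and the labels name both poly(A) selection and rRNA removal. GENCODE M39 annotation matched 54749 of 55416 gene IDs, and the 667 others held 0.0533% of counts. Counts were filtered with filterByExpr, scaled with TMM and tested in edgeR 4.0.16 (R 4.3.3) by a quasi-likelihood fit of all 8 libraries with 1 factor for group. A call needed a fold change over 2 and a Benjamini-Hochberg adjusted p under 0.05 over 18560 genes. Total counts were 19061949, 19796242 and 20527836 in control mice 1, 2 and 4, 20818501, 19379911 and 19279724 in LPS mice 1, 6 and 7, and 19875939 and 20908608 in dual-treated mice 2 and 5. The comparisons were LPS against control, dual treatment against control and dual treatment against LPS. Genes were named by a written rule. In each family it took up to 4 called genes per direction, largest change first, with a mean of at least 1 CPM in a group, for LPS against control and dual treatment against LPS. It added every guidance gene called for dual treatment against control, and the most abundant of each family per length. From each of 3 pathway lists and 23 cell type lists it took the most abundant gene by CPM and the highest and lowest called genes. Other named genes, among them those not called, were outside the rule and were chosen after their values were seen. A gene of the pathway lists that the rule names is not reported here. The guidance genes and the lists were chosen with earlier results of these data known. The pipeline was also run on simulated counts. There, far fewer genes changed than were called here, with equal numbers up and down, and no result here rests on that run. Alternatives were DESeq2 1.42.0, other scalings, filters and call rules, fits of only the groups compared, and fits with libraries left out.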

Additional observations from a re-analysis of the deposited data

How the results depend on the processing

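The 59 calls of named guidance genes were repeated under 17 alternatives. Of 998 values, 967 kept their direction and their side of the thresholds, 31 were weaker and 0 reversed. Only genes called in the main fit were followed. Alternatives that merely loosened the call rule on the same fit could not weaken a call, so their values count as kept by construction. A gene dropped by the filter of an alternative was not counted there, which left 16 values per comparison for Efna2, Ephb1 and Robo3. Of 153 counts of calls, 145 stayed within 1.5 times the main count. With adjusted p alone and no fold criterion, which by construction calls more genes, 12346 genes were called for LPS against control, 2997 for dual treatment against control and 10960 for dual treatment against LPS. That rule also called 6 guidance genes higher (all genes 9.13%) and 17 lower (all genes 7.02%) for dual treatment against control, and 22 higher (all genes 31.7%) for dual treatment against LPS. Leaving out dual-treated mouse 2 called 3 guidance genes lower against control (all genes 0.798%) and leaving out dual-treated mouse 5 called 9 (all genes 3.62%), while all genes called there in both directions went from 752 to 1831; the cause was not tested. No paired analysis was possible because the sources used here link no mouse of a group to a mouse of another group. Where a fit left 1 mouse in a group, that mouse was assumed to vary like the mice of the other groups. Depth limits the genes with few counts, among them Robo3, Efna2 and Ephb1, and the 6 guidance genes that were not tested.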
